A study of Mus musculus with 6 samples.

Results

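The 8 genes described here encode the enzymes that switch the pyruvate dehydrogenase complex of mitochondria on and off, together with their substrate: the kinases Pdk1, Pdk2, Pdk3 and Pdk4, the phosphatases Pdp1 and Pdp2, and the E1 subunits Pdha1 and Pdhb. They were taken by gene symbol, and 8 of 8 had a row in every table of 19458 genes. The data were RNA-seq libraries of the gastrocnemius, the large calf muscle, of C57BL/6 mice aged 9 weeks. There were 3 libraries from tmem182-/- mice (knockout) and 3 from wild type mice. Tmem182 encodes a membrane protein of striated muscle, and the labels say neither how the allele was made nor which sex was used. The Y-linked genes Ddx3y, Eif2s3y, Kdm5d and Uty were present in each of the 6 libraries.

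The pyruvate dehydrogenase complex turns pyruvate into acetyl-CoA and so decides whether muscle sends sugar carbon into the mitochondrion. The kinases add phosphate to serines of the E1 alpha chain, which stops the enzyme, and the phosphatases take it off again. In muscle, Pdk4 is known as the kinase gene that climbs during fasting and fat feeding, while Pdk2 is the widely expressed form.

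Library totals ran from 16212341 to 18672630 expected counts. Tmem182 itself averaged 4.23 ± 2.03 FPKM in tmem182-/- muscle and 129.9 ± 15.2 FPKM in wild-type muscle (SD, n = 3 each), low in 3 of 3 knockout libraries. The source name of knockout library 2 reads tmem183-/- and the one of knockout library 3 tmem184-/-. FPKM is the authors' read number per transcript length and library size, and is the scale on which genes are compared with each other. Though the labelled extraction protocol describes myoblasts or myotubes, adult fibre genes were abundant (Acta1 at 27925.9 to 34045.4 FPKM). Markers of myoblast and myotube culture, 10 genes, summed to 16.96 to 35.33 FPKM. Of these, Mki67, a proliferation gene, stayed at or below 0.07 FPKM and the fusion gene Mymk at or below 0.57 FPKM. Myod1 was present at 11.69 to 24.96 FPKM, Myog at 1.84 to 3.25 FPKM and Myh3 at 0.19 to 2.98 FPKM. Knockout library 1 stood apart in both directions: 29.9% of all genes tested had their highest value there and 27.9% their lowest. The 9 fastest-fibre markers summed to 63696 FPKM in it, against 93744 and 98420 FPKM in knockout libraries 2 and 3. Across the wild-type libraries they summed to 87123, 98539 and 99013 FPKM. Nothing in the labels says that each library came from its own mouse, so p-values here measure only sample-to-sample spread, and that spread may be technical. In bulk tissue, fewer cells of a type and less RNA per cell cannot be told apart.

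The start regions of Pdk4, Pdk2 and Pdhb are shown because these genes carry the contrast described in the results: the kinase gene with the widest range, the most abundant kinase gene, and a subunit of their substrate. Each runs from 250 bases before to 50 bases after a start listed by RefSeq on GRCm38.p6, on the gene's strand. For Pdk4 and Pdk2 that is the outer end of the RefSeq gene, and for Pdhb it lies 311 bases inside it. Capitals mark CCAAT (read as ATTGG on the other strand), the GC box GGGCGG and the E-box CACGTG.
Pdk4, chr6:5496229-5496528, minus strand: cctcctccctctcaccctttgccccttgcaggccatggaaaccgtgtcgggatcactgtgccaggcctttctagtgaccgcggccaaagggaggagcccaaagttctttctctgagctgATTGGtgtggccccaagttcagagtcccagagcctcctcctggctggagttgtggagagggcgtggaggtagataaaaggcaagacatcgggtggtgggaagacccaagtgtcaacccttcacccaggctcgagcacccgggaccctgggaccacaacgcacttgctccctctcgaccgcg
Pdk2, chr11:95041322-95041621, minus strand: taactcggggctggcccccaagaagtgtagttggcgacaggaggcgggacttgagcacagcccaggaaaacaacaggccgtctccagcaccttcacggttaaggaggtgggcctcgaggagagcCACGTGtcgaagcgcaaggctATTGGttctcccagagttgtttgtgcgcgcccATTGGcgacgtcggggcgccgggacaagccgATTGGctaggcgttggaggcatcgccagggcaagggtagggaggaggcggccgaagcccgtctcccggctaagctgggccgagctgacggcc
Pdhb, chr14:8172943-8173242, minus strand: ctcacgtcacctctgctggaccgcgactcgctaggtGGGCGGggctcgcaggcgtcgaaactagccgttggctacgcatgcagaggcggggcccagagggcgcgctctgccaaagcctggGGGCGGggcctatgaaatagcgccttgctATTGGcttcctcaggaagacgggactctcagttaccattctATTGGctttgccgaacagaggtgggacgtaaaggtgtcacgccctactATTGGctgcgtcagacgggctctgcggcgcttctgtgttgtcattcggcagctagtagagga
Pdk4 held 1 CCAAT match, whereas Pdk2 and Pdhb held 3 each, a number reached by 3.37% of the 32851 promoters in the RefSeq table. At least 1 CCAAT match was present in 37.4% of them. The Pdk2 region also held 1 CACGTG, found in 7.15% of promoters, and the Pdhb region 2 GGGCGG, a number reached by 19.5%. Pdk4 had 12 CG dinucleotides, Pdk2 25 and Pdhb 24, where the median promoter had 7. The nuclear receptor motif AGGTCA (16.3% of promoters), the FoxO motif TGTTTAC (3.65%) and TATAAA (13.6%), searched on both strands, had no match in the promoters of the 7 members found in that table, which says only that these letters are not in these windows. The motifs do not overlap each other in the regions printed, and a match describes letters, not a bound site.

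Pdk2 was the most abundant of the 8 genes in 6 of 6 libraries, followed by Pdha1 and then Pdhb. At a mean of 359.95 FPKM it ranked at place 106 of the 19458 genes. Pdk3, best known from tissues such as testis, was lowest in every library and rested on only 11 to 19 expected counts. Pdp2 was the second lowest throughout. The order of Pdk4, Pdp1 and Pdk1 in between changed from library to library, since Pdk4 moved over a wide range while Pdp1 and Pdk1 lay within a few FPKM of each other.

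**Figure D1:**
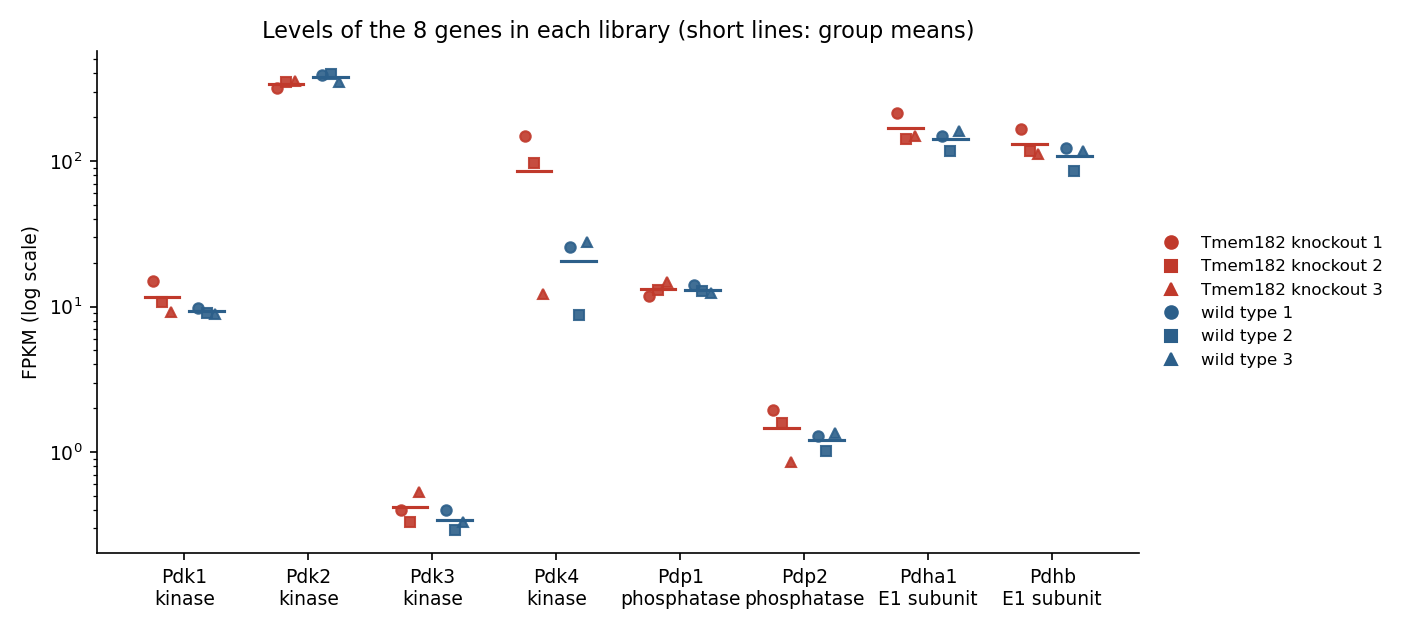
FPKM (log axis) of each gene in each library, with knockout (red) left of wild type (blue), 1 point per library and short lines at the group means. Pdk4 spans 8.80 to 148.62 FPKM, while Pdk2 stays between 316.65 and 399.17 FPKM.

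None of the 8 genes passed the comparison of genotypes. All 8 were kept for testing, and 0 had an adjusted p under 0.05 in edgeR's quasi-likelihood test over 12774 genes, where 0.00783% of all genes tested passed (1 gene, Tmem182). DESeq2 also called 0 of the 8, with 0.047% of all genes tested called. At an unadjusted p under 0.05, 1 of the 8 was reached (Pdk4, higher in the knockout), against 3.55% of all genes tested, or 2.07% higher and 1.48% lower in the knockout. Fitted fold changes were above 0 for 6 of the 8 and below 0 for Pdk2 and Pdp1, with a median log2 fold change of 0.19. Over all genes tested the median was 0.0046, with 51.1% above and 48.9% below 0. Exact permutation p-values for the 7 genes other than Pdk4 ran from 0.2 to 1. On FPKM the groups overlapped for 8 of 8 genes. On library-scaled CPM (counts scaled by library total with edgeR's TMM factors) they did not overlap for 2, Pdk1 and Pdk2, where 9.18% of all genes tested did not overlap (4.67% higher and 4.51% lower in the knockout), and in both the gap was thin.

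**Figure D2:**
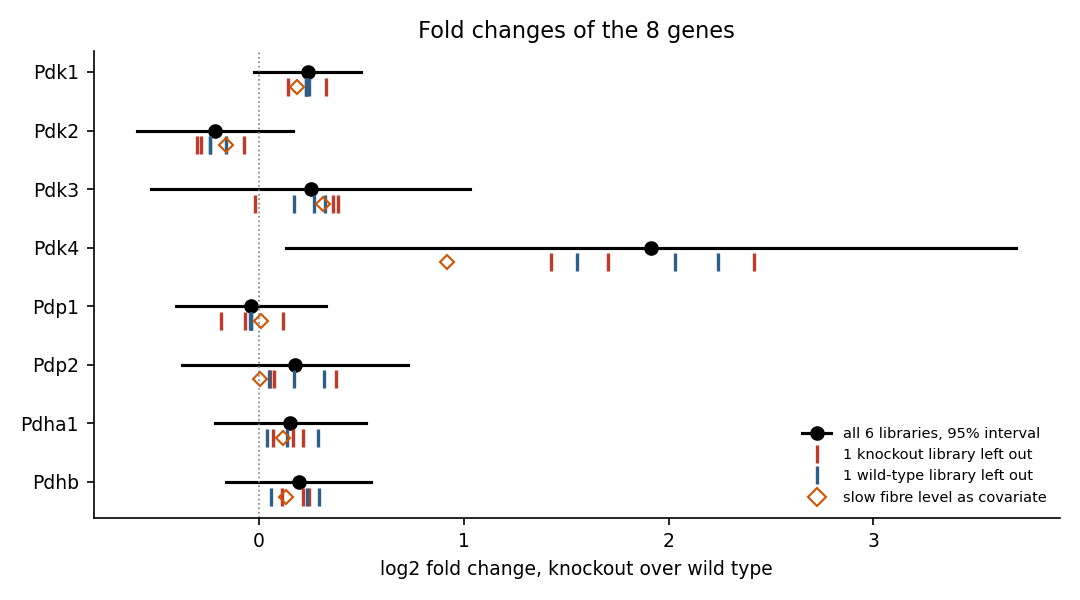
Fitted log2 fold change (knockout over wild type) of each gene with its 95% interval in black, the values with 1 library left out as ticks, and the value with the slow fibre level as covariate as a diamond. Pdk4 lies at 1.91 with an interval of 0.13 to 3.70, and the intervals of the other 7 include 0.

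Pdk4 differed most between libraries. It (Entrez 27273, chromosome 6, 5483351 to 5496309 of GRCm38, minus strand) is overlapped by no other annotated gene. It had 148.62, 96.35 and 12.16 FPKM in knockout libraries 1, 2 and 3, against 25.57, 8.80 and 27.74 FPKM in wild-type libraries 1, 2 and 3. Knockout libraries 1 and 2 exceeded every wild-type library, while knockout library 3 lay below wild-type libraries 1 and 3, so the groups overlapped. The group means were 85.7 ± 68.8 FPKM in tmem182-/- muscle and 20.7 ± 10.4 FPKM in wild-type muscle (SD, n = 3 each). Its fitted log2 fold change came to 1.91 (SE 0.76, 95% interval 0.13 to 3.70, unadjusted p = 0.0384 and adjusted p = 0.994 in edgeR). The two-sided exact permutation test of log2(FPKM + 1) gave p = 0.3, where 3 against 3 libraries allow no p below 0.1.

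The spread of Pdk4 was large within each genotype too. Within wild type its highest value was 3.15 times its lowest, and within the knockout 12.2 times. Its SD of log2 CPM within groups was 1.43, above that of 99.6% of the 10330 genes with a mean of at least 1 FPKM, whose median was 0.17. In wild type alone it was above 98.8% and in the knockout alone above 99.8% of them. Without knockout library 1 the log2 fold change was 1.42 (unadjusted p = 0.101 by edgeR), and without knockout library 3 it was 2.42 (unadjusted p = 0.000946). The unadjusted p was above 0.05 in each of the other 4 fits that left out 1 library, and the adjusted p in these 6 fits was never under 0.80.

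Pdk4 followed the slow fibre genes of the same library. These 12 genes, such as Myh7 (slow myosin) and Mb (myoglobin), had a mean log2 CPM of 7.85, 7.42 and 3.49 in knockout libraries 1, 2 and 3, against 6.39, 3.49 and 6.21 in wild-type libraries 1, 2 and 3. Their summed level was 5758, 2799 and 528 FPKM in tmem182-/- muscle, against 1979, 232 and 1511 FPKM in wild-type muscle. All 12 had fitted fold changes above 0, against 51.1% of all genes tested, and 0 of 12 passed the adjusted threshold. The libraries split into knockout 3 and wild type 2 at 3.49 and the other 4 at 6.21 or more, so no correlation coefficient is given. The 2 libraries with the lowest slow fibre level were the 2 with the least Pdk4, and the 2 with the highest slow fibre level had the most. At the shared slow fibre level of 3.49, knockout library 3 had 12.16 FPKM of Pdk4 and wild-type library 2 had 8.80 FPKM. The pattern was not particular to slow fibre genes. Myh1 and Myh2, of intermediate fast fibres, summed to 3192, 685 and 394 FPKM in tmem182-/- muscle and 1307, 104 and 1035 FPKM in wild-type muscle. They too were lowest in knockout library 3 and wild-type library 2, but knockout library 2 lay below wild-type libraries 1 and 3.

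When edgeR's model also held the slow fibre level, the log2 fold change of Pdk4 was 0.92 (SE 0.18, unadjusted p = 0.000955, adjusted p = 0.999 over all genes), less than the 1.91 without it. That level was taken from the same libraries and was highest in knockout libraries 1 and 2. Slow fibre content and genotype therefore cannot be told apart as sources of the Pdk4 values. Markers of other cell types also peaked in knockout library 1: 8 adipocyte markers summed to 270.1, 105.4 and 108.9 FPKM in tmem182-/- muscle and 156.4, 86.3 and 112.9 FPKM in wild-type muscle, with Ucp1 at 0 throughout. Fabp4 alone made up most of each sum, with 199.94, 96.1 and 82.35 FPKM for knockout libraries 1, 2 and 3. Unlike Pdk4, the remaining adipocyte markers above 0 were each second highest in knockout library 3. Cfd, for example, stood at 46.77, 6.82 and 16.86 FPKM across the knockout libraries, where wild type spanned 7.21 to 8.23 FPKM. The 6 endothelial markers summed to 143.7, 83.6 and 58.9 FPKM in tmem182-/- muscle and 104.6, 60.3 and 83.5 FPKM in wild-type muscle. In these 2 lists 12 of 12 tested markers had fitted fold changes above 0, against 51.1% of all genes tested, and 0 passed. The 6 macrophage markers summed to 57.8, 18.2 and 25.4 FPKM in tmem182-/- muscle, with 23.7, 15.7 and 15.3 FPKM in wild-type muscle. The 6 Schwann cell markers summed to 308.6, 49.9 and 87.8 FPKM in tmem182-/- muscle, with 202.9, 19.96 and 38.4 FPKM in wild-type muscle. The sums of 5 fibroblast markers, at 148.3 to 355.1 FPKM, and of 5 erythroid markers, at 444.5 to 1895.4 FPKM, were also highest in knockout library 1, as were 4 of the 5 fibroblast markers and 5 of the 5 erythroid markers singly. Erythroid sums in wild-type muscle were 793.8, 1100.2 and 969.5 FPKM, above the 444.5 and 685.6 FPKM of knockout libraries 2 and 3. Fitted fold changes were above 0 for 6 of 6 macrophage, 6 of 6 Schwann cell and 4 of 5 fibroblast markers, but for 1 of 5 erythroid markers. The part of these cell types in the Pdk4 values was not tested.

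**Figure D3:**
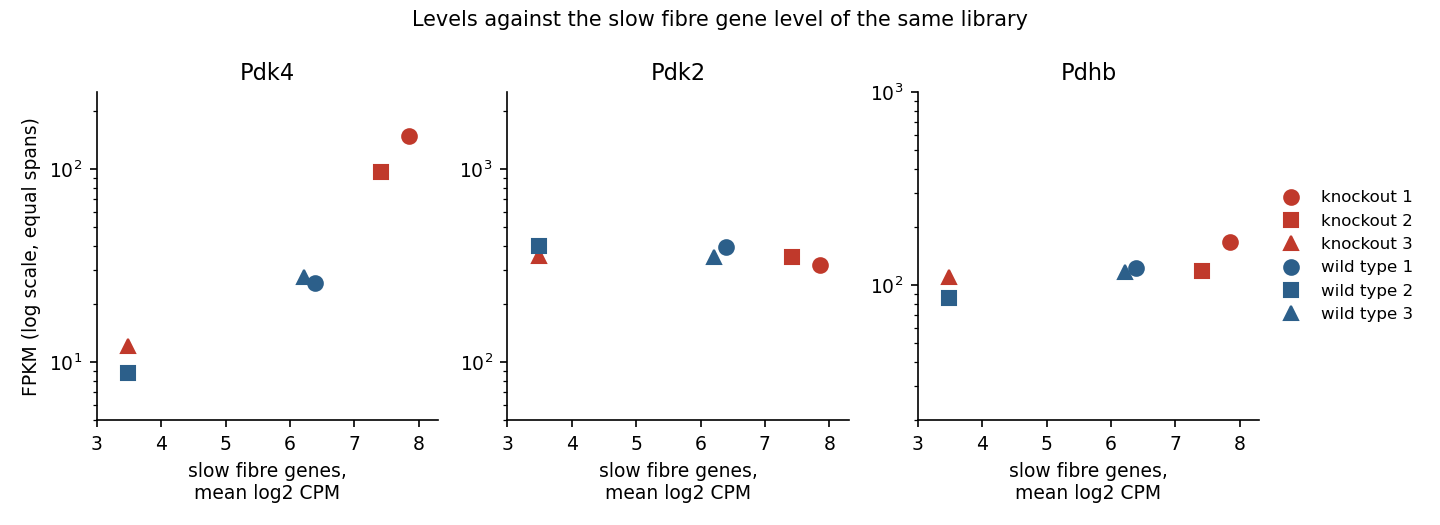
FPKM of Pdk4, Pdk2 and Pdhb (log axes of roughly equal span) against the mean log2 CPM of 12 slow fibre genes, 1 point per library, knockout red and wild type blue. Pdk4 is lowest, at 8.80 and 12.16 FPKM, in the 2 libraries with a slow fibre level of 3.49, and Pdk2 stays between 316.65 and 399.17 FPKM.

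Pdk2 (Entrez 18604, chromosome 11, 95026258 to 95041354, minus strand) made up most of the kinase message. Its SD of log2 CPM within groups was 0.20, above that of 59.4% of the 10330 genes. It had 316.65, 349.65 and 352.38 FPKM in knockout libraries 1, 2 and 3, against 392.24, 399.17 and 349.63 FPKM in wild-type libraries 1, 2 and 3. On scaled CPM the knockout libraries had 604.9, 828.1 and 847.4, below the 852.2, 942.8 and 849.0 of wild type, but knockout library 3 and wild-type library 3 were almost equal. Its fitted log2 fold change came to -0.21 (SE 0.16, 95% interval -0.59 to 0.17, adjusted p = 0.994 in edgeR), and without knockout library 1 it was -0.07. The antisense gene Gm11513 lies within the span of Pdk2 and shares 0 exon bases with it.

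Pdk1 (Entrez 228026, chromosome 2, 71873224 to 71903858, plus strand), the kinase gene known as a target of hypoxia signalling, was at 8.96 to 14.89 FPKM, far below Pdk2 in every library. It had 14.89, 10.76 and 9.13 FPKM in tmem182-/- muscle, against 9.79, 9.05 and 8.96 FPKM in wild-type muscle. Knockout library 1 was highest, and knockout library 3 fell within the wild-type range. On scaled CPM all knockout libraries (65.8, 59.0 and 50.8) lay above all wild-type libraries (49.2, 49.4 and 50.3), the nearest pair about as close as wild-type libraries were to each other. Its fitted log2 fold change came to 0.24 (SE 0.11, 95% interval -0.02 to 0.50, unadjusted p = 0.0693, adjusted p = 0.994 in edgeR). Without knockout library 1 it was 0.14.

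Pdk3 (Entrez 236900, chromosome X, 93764607 to 93832201, minus strand) had 0.40, 0.33 and 0.53 FPKM in tmem182-/- muscle, against 0.40, 0.29 and 0.33 FPKM in wild-type muscle. Its log2 fold change of 0.25 had an interval of -0.53 to 1.03, which leaves the sign of any difference unknown. Without knockout library 3 it was -0.02.

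Summed over the 4 isoforms, kinase message was more even than Pdk4 alone, which follows from the large and steady Pdk2 part of the sum. The sum was 480.6, 457.1 and 374.2 FPKM in tmem182-/- muscle, against 428.0, 417.3 and 386.7 FPKM in wild-type muscle. Deposited FPKM does not hold the TMM factors, which were 1.19 for knockout library 1 and 0.933 to 1.04 for the rest. The order of the libraries in this sum can therefore differ on scaled CPM. Pdk4 made up 30.9%, 21.1% and 3.25% of it in the knockout, against 5.97%, 2.11% and 7.17% in wild type. Pdk2 made up the most in each library, at 65.9%, 76.5% and 94.2% in the knockout and 91.6%, 95.7% and 90.4% in wild type. Pdk2 was thus 2.13 times as abundant as Pdk4 in knockout library 1 and 45.4 times in wild-type library 2. These shares are descriptions of chosen genes and were given no test.

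**Figure D4:**
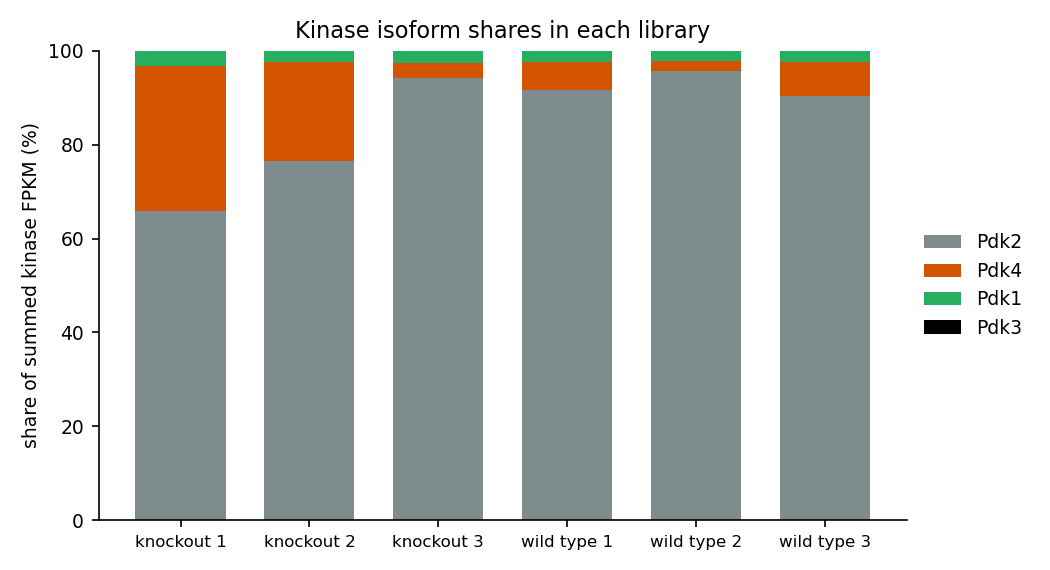
Share of each kinase isoform in the summed kinase FPKM (percent), 1 bar per library, knockout left of wild type. Pdk4 takes 30.9% and 21.1% in knockout libraries 1 and 2 and at most 7.17% in the other 4, and Pdk3 is too small to see.

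Of the phosphatases, Pdp1 (Entrez 381511, chromosome 4, 11958184 to 11966452, minus strand), the calcium-stimulated form, exceeded Pdp2 in every library. Pdp1 had 11.84, 12.96 and 14.64 FPKM in tmem182-/- muscle, against 14, 12.84 and 12.44 FPKM in wild-type muscle. On scaled CPM the wild-type libraries were nearly identical at 56.6, 56.4 and 56.3, while the knockout libraries, at 42.2, 57.1 and 65.6, lay on both sides of them. Its fitted log2 fold change came to -0.04 (SE 0.16, interval -0.40 to 0.33). It was 0.12 without knockout library 1 and 0.0023 by limma on log2(FPKM + 1), so no direction can be given.

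Pdp2 (Entrez 382051, chromosome 8, 104591451 to 104599026, plus strand), the other phosphatase form, had 1.95, 1.58 and 0.85 FPKM in tmem182-/- muscle, against 1.28, 1.02 and 1.35 FPKM in wild-type muscle. The knockout libraries lay on both sides of wild type, with knockout library 3 lowest of all. Its fitted log2 fold change came to 0.18 (SE 0.24, interval -0.38 to 0.73), and 0.0076 with the slow fibre level as covariate. Pdp1 was 6.07, 8.20 and 17.2 times as abundant as Pdp2 in the knockout, against 10.9, 12.6 and 9.21 times in wild type. Message for both phosphatases together was a small fraction of that for the kinases, with a ratio of 0.0287, 0.0318 and 0.0414 in the knockout and 0.0357, 0.0332 and 0.0357 in wild type.

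The E1 subunits moved together. Pdha1 (Entrez 18597, chromosome X, 160122209 to 160138413, minus strand), the alpha chain that the kinases phosphorylate, had 212.84, 141.23 and 148.91 FPKM in tmem182-/- muscle, against 149.17, 116.40 and 160.25 FPKM in wild-type muscle. Pdhb (Entrez 68263, chromosome 14, 8165996 to 8173025, minus strand), the beta chain, had 167.16, 117.88 and 110.95 FPKM in tmem182-/- muscle, against 123.55, 85.81 and 117.63 FPKM in wild-type muscle. Both were highest in knockout library 1 and lowest in wild-type library 2, and the groups overlapped. This held on scaled CPM too, but there knockout library 1 stood closer to the next library. Pdha1 had 514.7 CPM in it against 492.6 in wild-type library 3, and Pdhb 207.8 against 185.8. Pdha1 was 1.27, 1.198 and 1.34 times Pdhb in the knockout, against 1.21, 1.36 and 1.36 times in wild type, a coefficient of variation of 5.79% over the 6 libraries. Log2 fold changes were 0.15 (SE 0.16) for Pdha1 and 0.19 (SE 0.15) for Pdhb, both with adjusted p = 0.994 in edgeR. Without wild-type library 2 they were 0.038 for Pdha1 and 0.058 for Pdhb. Exons of Pdha1 share 603 bases with exons of Map3k15 on the opposite strand, and reads there cannot be told apart unless strand was used in counting.

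The core subunits of the complex kept step with E1. Of 11 other genes of the complex and its cofactors, including the E2 core Dlat, the E3 enzyme Dld, the E3-binding protein Pdhx and the mitochondrial pyruvate carrier Mpc1 and Mpc2, 0 rose and 0 fell at the adjusted threshold, with a median log2 fold change of 0.07. Dld was at 81.27, 53.89 and 54.72 FPKM in tmem182-/- muscle, against 58.28, 39.41 and 54.88 FPKM in wild-type muscle, and its ratio to Pdhb stayed between 0.457 and 0.493. The ratio of Dlat to Pdhb stayed between 0.411 and 0.497. Over the same 6 libraries the ratio of Pdk4 to Pdha1 was 0.698, 0.682 and 0.0817 in the knockout, against 0.171, 0.0756 and 0.173 in wild type. Mpc1 had the smallest p of the list, at 265.81, 254.61 and 227.85 FPKM in tmem182-/- muscle and 221.16, 179.14 and 209.18 FPKM in wild-type muscle (log2 fold change 0.22, SE 0.12). Every knockout value of Mpc1 lay above every wild-type value, as on scaled CPM in 4.67% of all genes tested. Its unadjusted p was 0.101 and its adjusted p 0.994 in edgeR.

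**Figure D5:**
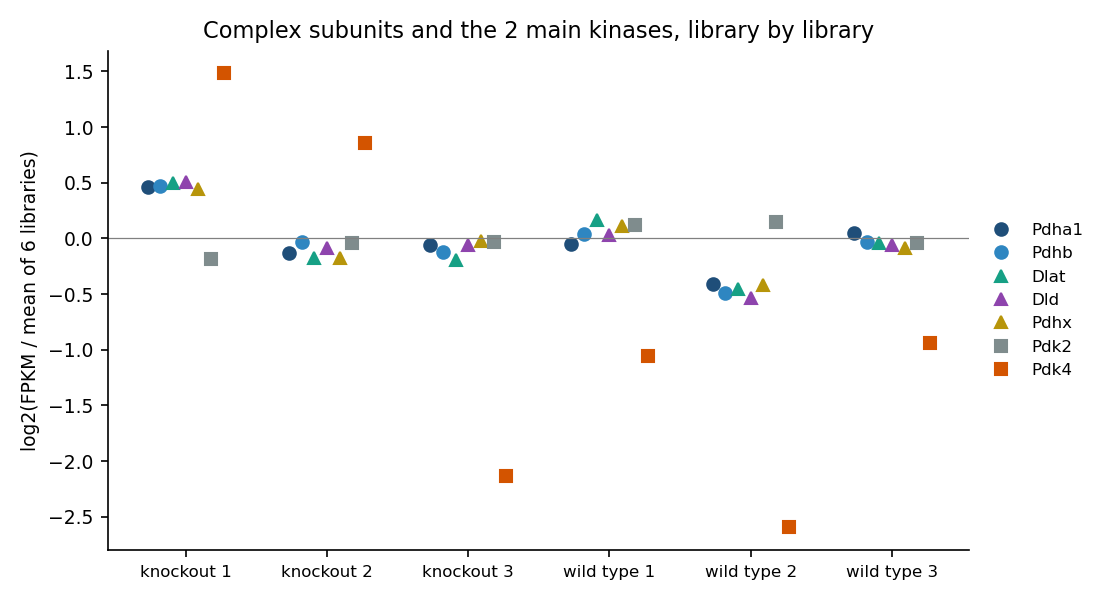
Log2 of each gene's FPKM over its mean of the 6 libraries, by library, for the E1 subunits (circles), Dlat, Dld and Pdhx (triangles) and the kinases Pdk2 and Pdk4 (squares). The 5 subunits lie close together in every library, while Pdk4 lies away from them in each library.

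The related branched-chain ketoacid dehydrogenase, which has its own kinase Bckdk and phosphatase Ppm1k, gave 0 of 5 genes past the threshold, with a median log2 fold change of 0.0046. Bckdk averaged 66.5 ± 6.10 FPKM in tmem182-/- muscle and 66.5 ± 3.86 FPKM in wild-type muscle (SD, n = 3 each). Among 11 genes that set other fates of pyruvate, 0 passed and the median was -0.03. Gpt, an alanine transaminase, and Slc16a1, a lactate and pyruvate transporter, were at 0.35 (SE 0.20) and 0.60 (SE 0.35) on the log2 fold scale. Of 15 hypoxia targets known to move with Pdk1, 0 passed and 12 lay above 0, against 51.1% of all genes tested, with a median of 0.15. In 8 of the 15 the highest value was in knockout library 1, as in 29.9% of all genes tested. Bnip3, a mitophagy receptor, was the only member of that list at an unadjusted p under 0.05 (log2 fold change 0.25, SE 0.10).

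Genes that respond to fasting and fatty acids, the setting in which Pdk4 is known to climb, gave 0 of 21 tested past the adjusted threshold. Fitted fold changes were above 0 for 20 of the 21, against 51.1% of all genes tested, and their median was 0.53 on the log2 scale. Of the 21, 5 reached an unadjusted p under 0.05, against 3.55% of all genes tested. In 17 of the 21 the highest value was in knockout library 1, as in 29.9% of all genes tested, and in 17 the lowest was in wild-type library 2, as in 22.7%. Fbxo32, a ubiquitin ligase of atrophy, had 52.08, 70.18 and 32.34 FPKM in tmem182-/- muscle, against 28.32, 19.90 and 31.56 FPKM in wild-type muscle. Its groups did not overlap, as on scaled CPM in 4.67% of all genes tested with the knockout higher. Knockout library 3 lay just above wild-type library 3 (log2 fold change 0.89, SE 0.30, adjusted p = 0.994 in edgeR). For Cpt1a, which admits fatty acids to mitochondria, the log2 fold change was 0.53 (SE 0.19), and for Angptl4, a lipase inhibitor, 2.37 (SE 0.94). Levels of Angptl4 were low, at 4.48, 0.73 and 0.32 FPKM in tmem182-/- muscle and 0.57, 0.08 and 0.29 FPKM in wild-type muscle. Its groups overlapped, and knockout library 1 stood far above the rest. Acot2, also at an unadjusted p under 0.05, was named after its value was seen (0.65, SE 0.27). Many of these genes are also known from slow, oxidative fibres and fat cells, whose markers moved as given above, and the part of those cells in these values was not tested.

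Of 18 transcription factors known to act on Pdk4 or Pdk2, 0 passed and 12 lay above 0, against 51.1% of all genes tested, with a median log2 fold change of 0.07. The 4 with the smallest p were Foxo3 at -0.13 (SE 0.08), Foxo4 at -0.16 (SE 0.11), Stat5a at 0.20 (SE 0.14) and Esrrg at 0.83 (SE 0.60). Foxo4, a forkhead factor, had 37.63, 35.43 and 37.00 FPKM in tmem182-/- muscle, against 41.26, 39.64 and 37.30 FPKM in wild-type muscle. Esrrg, a nuclear receptor of oxidative muscle, ran like Pdk4 at the extremes, with 10.27, 3.99 and 2.25 FPKM in tmem182-/- muscle and 4.21, 0.86 and 3.27 FPKM in wild-type muscle.

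The genes most alike in pattern to each member were taken by Pearson's r of log2 CPM over the 6 libraries, among 10329 other genes with a mean of at least 1 FPKM (10330 for Pdk3). This is a description with no test, since the genes were picked for the highest r and r ignores the size of the swings. For Pdk4 they were Hmgb2 (r = 0.995), Tmem218 (0.988) and Crebrf (0.988). Each swung less than Pdk4, with Hmgb2 between 1.11 and 1.92, Tmem218 between 2.02 and 4.66 and Crebrf between 1.94 and 3.94 FPKM. For Pdk2 they were Mapk12 (0.996), Ankrd9 (0.996) and Phkg1 (0.994), the last a catalytic subunit of muscle phosphorylase kinase. For Pdhb they were Atp5j (0.998), a subunit of ATP synthase, Aifm1 (0.996) and Vsig10 (0.993), and for Pdha1 Cdk2ap2 (0.983), Rap1gap2 (0.982) and Bola3 (0.979). For Pdk1 they were Pex11a (0.995), Sctr (0.991) and Plxnb2 (0.99), and for Pdk3, on its few counts, Med21 (0.998) and Bptf (0.992). For Pdp1 they were Rps4x (0.999), Tfg (0.996) and Vapa (0.99), and for Pdp2 Nudt22 (0.99), Chrna1 (0.989) and Tmx3 (0.976). An r of at least 0.95 was reached by 209 genes for Pdk2, 118 for Pdhb and 117 for Pdp1, but by 33 for Pdk4, 31 each for Pdk1 and Pdha1, 15 for Pdp2 and 4 for Pdk3.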

How the data were processed

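Total RNA of 6 gastrocnemius samples was made into libraries by BGI's standard protocol, per the labels' protocols, and samples were grouped by the genotype in the labels. The deposited tables give expected counts per gene, which are not normalized, and FPKM with 2 decimals, per the file headers. HISAT2 2.0.4, Bowtie2 2.2.5, RSEM 1.2.12 and the GRCm38 build are named in the submitters' processing notes. What each did, the annotation, read filters and strand handling: not given in the sources used here.

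Expected counts were rounded, filtered with filterByExpr (minimum count 10), scaled by TMM and tested with edgeR 4.0.16 in R 4.3.3 (quasi-likelihood, two-sided, Benjamini-Hochberg over 12774 genes, threshold 0.05), with no covariate. Standard errors are the log2 fold change over the square root of F, and intervals are at 95%. Log2 CPM used a prior count of 2. Levels are deposited FPKM. Positions come from GENCODE on GRCm38. Alternatives used DESeq2 1.42.0 and limma 3.58.1. On simulated data for knockout against wild type over 12774 genes, edgeR recovered 58.3% of 2-fold and 93.3% of 4-fold changes, with 12.7 false calls on average. The changed genes were drawn at random, so these rates are averages over genes. They cannot be read as rates for Pdk4, whose SD within groups was above that of 99.6% of genes. No pairing of the libraries is stated, so the main fit held no block for replicate number. No 2 libraries agreed within counting noise.

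The genes named were the 8 members, up to 4 tested genes with the smallest p of each list, and the 3 genes most alike to each member. Members and lists were chosen with earlier results of these data known. Plin2 was not analysed here. Some genes that this rule picks are not reported here.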

Additional observations from a re-analysis of the deposited data

How the results depend on the processing

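None of the 118 fold changes of the 8 genes refitted under other settings passed an adjusted p of 0.05, and 111 of them kept their direction. The 7 that reversed were small: Pdk3 without knockout replicate 3 (-0.021), Pdha1 by limma-voom with library quality weights (-0.027), and Pdp1 without knockout replicate 1 (0.12), by limma on log2(FPKM + 1) (0.0023) or log2(FPKM + 0.1) (0.0022), by limma-voom (0.045) and with the slow fibre level as covariate (0.0099). For each of these the cause was not tested. The log2 fold change of Pdk4 ran from 0.92 with the slow fibre level as covariate and 1.18 by limma-voom to 2.42 without knockout replicate 3, and with 1 library left out from 1.42 to 2.42. For Pdk3 that range was -0.021 to 0.38, for Pdp1 -0.19 to 0.12, for Pdp2 0.047 to 0.37, for Pdha1 0.038 to 0.29 and for Pdhb 0.058 to 0.29. Pdk3 and Pdp2 could not be fitted with a mean of at least 5 FPKM, which removes them.

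The number of genes called over the whole table was 1, and leaving out 1 library gave 0 to 1, with 0 without knockout replicate 2 and without wild-type replicate 3. It was 6 by the DESeq2 Wald test and 2 with the slow fibre level as covariate, and no member was among them. Of the kinase shares, CPM in place of FPKM, which drops the scaling by transcript length, moved Pdk1 to 5.36% in the knockout and 4.94% in wild type, Pdk2 in wild type to 87.6% and Pdk3 in wild type to 0.0693%. On CPM the Pdk4 share was 24.1% in the knockout and 7.35% in wild type, and that of Pdk2 in the knockout 70.4%, each within 1 SD of its FPKM value. It moved the ratio of phosphatase to kinase message to 0.0578 in the knockout and 0.0626 in wild type.

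With the replicate number as a block the count of genes called was 1 and the log2 fold change of Pdk4 was 1.70 (adjusted p = 0.845 by edgeR), and it changed no call. At an unadjusted p under 0.05, edgeR with the block had 439 genes higher and 304 lower in the knockout, against 264 and 189 without it. Deviations of same-numbered libraries from their group means correlated at 0.524, 0.179 and -0.122 over genes for numbers 1, 2 and 3. Knockout libraries 1 and 2 each correlated best with the wild-type library of the same number, but knockout library 3 with wild-type library 2 (0.427). Whether a number marks a shared batch or pairing was not tested.

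Pdk3 rests on 11 to 19 counts per library. In the simulated data 2-fold changes were recovered in 58.3% of the genes changed that much, so changes of that size can be missed with 3 libraries per group.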
